A study of Mus musculus with 7 samples.

Results

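The genes described here encode extracellular proteases and their inhibitors. They were chosen by symbol as the coding transcript clusters whose first gene symbol begins with Adam (Adamts included), Prss, Tmprss, Mmp, Timp, Serpin, Cst, Spink, Klk, Cpa or Cpx followed by a letter or digit. The rule gave 71 of 3997 coding genes with a symbol among the 7580 transcript clusters analysed here. The arrays read total RNA from the seminiferous tubules of adult testes, with the tunica removed, of 3 wild-type and 4 *Ctcf*-cKO mice. In *Ctcf*-cKO mice (Stra8-iCre-Ctcf f/Δ) the *Stra8* promoter drives the Cre recombinase in spermatogonia and pre-leptotene spermatocytes, and Sertoli, Leydig and spermatogonial cells still hold CTCF, a protein that binds DNA and helps to organise chromatin. Littermates of the genotypes Ctcf f/f, wt/f or wt/wt were all called wild-type, and which of these the 3 mice had is not given in the sources used here.

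The proteases of this set cut proteins at the cell surface, in the acrosome or in the extracellular matrix, and the inhibitors bind to such enzymes and block them. ADAM proteins join a metalloprotease domain to a disintegrin domain, and many testis members have lost the catalytic residues and act on the sperm surface in adhesion and in migration through the oviduct. The PRSS proteins are serine proteases of the trypsin fold, as are the kallikreins encoded by *Klk* genes. Serpins trap serine proteases, cystatins (*Cst*) block cysteine proteases, and TIMPs block the matrix metalloproteases (*Mmp*) and several ADAM and ADAMTS enzymes.

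Each value below is the authors' mean of the log2 signal of a genotype, and each difference is *Ctcf*-cKO minus wild-type on that log2 scale. Values of single arrays fill 0 columns, so neither a value per mouse nor its spread was computed, and the p-values of the authors, by which the rows had been selected, were not used. The authors kept only clusters that passed their thresholds, a linear fold of 2 and a p of 0.05 before adjustment, so nothing is known here of a gene that lacks a row, and a size of at least 1.00 is a property of the selection. *Ctcf* has no row. Because the RNA came from whole tubules, fewer cells of a type and less RNA per cell cannot be told apart. Lists of cell type markers differed between the genotypes as well. All 7 Leydig cell markers with a row (of 8 listed) were higher in *Ctcf*-cKO by 1.39 to 2.97, and all 8 Sertoli cell markers with a row (of 10) by 1.11 to 2.28. Higher values were also found for the 3 peritubular myoid cell markers with a row (of 5; 1.06 to 1.42), the 5 macrophage markers (of 9; 1.09 to 2.33) and the 2 endothelial markers (of 5; 1.12 to 1.13). The 7 markers of primary spermatocytes with a row (of 9) were lower, from -1.57 to -1.04, as were the 8 of round spermatids (of 9), from -1.57 to -1.06. Among them *Dmc1* and *Acr* turned positive after re-centring to the median of the rows (-1.145). *Sycp1* and *Hook1*, both at -1.14, lie at that median within the rounding of the averages. Only 2 of 9 elongating spermatid markers have a row, *Prm3* (-1.04) and *Akap4* (-1.02), and both turned positive likewise. Of 6 spermatogonial markers only *Kit* has a row, and it was higher by 2.28. The part of these cell types in the differences below was not tested.

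Of the 71 genes, 38 (53.5%) were lower in *Ctcf*-cKO and 33 were higher. For comparison, among all 3997 coding genes 61.3% were lower and 38.7% were higher, so the split of the set as a whole lies near that background. Within the set the split followed the families once the Adam prefix was divided into a testis list and other genes. That division was made with earlier results of these data known. The undivided prefix held both directions, with 17 lower testis Adam genes and 3 higher other Adam genes. The 34 testis Adam, Prss and Tmprss genes counted 33 lower and 1 higher, with a median difference of -1.52, although re-centring to the median of the rows turned 4 of the lower ones (*Adam5*, *Prss45*, *Prss46* and *Prss55*) to small positive values. The 17 Serpin, Adamts, Mmp and Timp genes were all higher, with a median of 1.43. Re-centring adds the same amount to every difference, so that a higher gene cannot turn, and it is no check of the higher genes. A lower gene turns wherever its size is below that of the median. Staying lower or turning therefore only restates the size of its difference. The 7 Klk genes were all higher too, whereas the cystatins held both directions. At a linear fold of at least 3, 14 of the 71 members were lower and 17 were higher. Among all 3997 coding genes these counts were 321 (8.03%) and 413 (10.3%). The median difference was -1.52 over the lower members and 1.6 over the higher members, beside -1.29 and 1.33 over all lower and all higher coding genes. The median of all 7580 rows was -1.145, which is the shift that re-centring removes. These rows were selected by fold, so that value is not the median of the array.

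**Figure D1:**
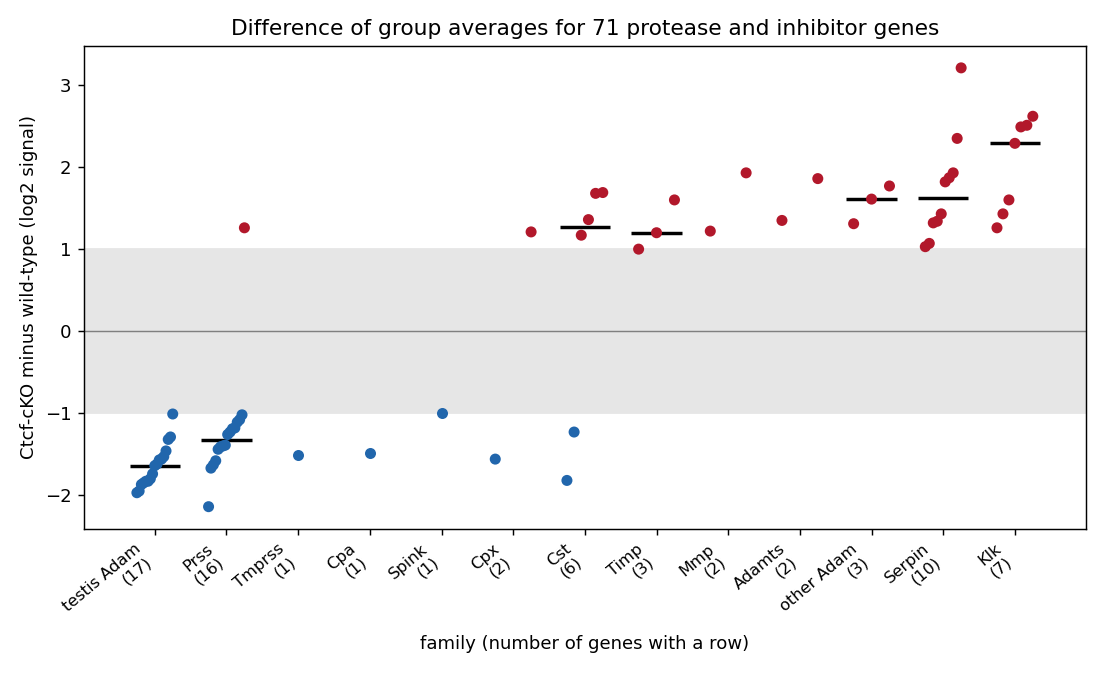
Difference between the authors' means of *Ctcf*-cKO and wild-type (log2 signal, vertical axis) for each of the 71 genes, by family (horizontal axis, number of genes in parentheses). Each point is a gene, blue where lower and red where higher in *Ctcf*-cKO, horizontal bars are the medians of families of at least 3 genes, and the grey band between -1 and 1 holds no gene because of the authors' fold filter. The 17 testis Adam genes sit below the band and the 10 Serpin genes and 7 Klk genes above it; after re-centring to the median of the rows *Adam5* would lie at 0.135.

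All 17 Adam genes of the testis with a row were lower in *Ctcf*-cKO. Re-centring, which only sorts lower genes by size, left 16 of them lower, the exception being *Adam5*. Their median difference was -1.64, and 10 were lower by a linear fold of at least 3. The differences ran from -1.97 for *Adam25* to -1.01 for *Adam5*. *Adam25*, which encodes a testase of spermatogenic cells, averaged 8.66 in wild-type against 6.69 in *Ctcf*-cKO, a 3.92-fold lower linear signal. Its row lies on chromosome 8, from 40752208 to 40756176 on the plus strand (mm10). *Adam30* on chromosome 3 averaged 9.68 and 7.73, a difference of -1.95. *Adam18* averaged 10.49 and 8.62, a difference of -1.87.

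The fertilin genes were among those that were lower. *Adam1b*, which encodes a fertilin alpha subunit of sperm, averaged 9.93 in wild-type against 8.08 in *Ctcf*-cKO, a difference of -1.85. *Adam2*, the fertilin beta subunit, averaged 11.21 and 9.64, a difference of -1.57. *Adam3* (cyritestin), a sperm surface protein needed for passage through the oviduct, averaged 12.20 and 10.88, a difference of -1.32. *Adam6a* and *Adam6b*, whose products act with ADAM3 in sperm, differed by -1.64 (from 8.60 to 6.96) and -1.74 (from 8.54 to 6.80). *Adam24*, the gene of another testase, went from 9.57 to 7.74, a difference of -1.83. *Adam29* averaged 8.11 in wild-type against 6.28 in *Ctcf*-cKO, again a difference of -1.83.

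The other members past 1.5 were *Adam20* (-1.80), *Adam39* (-1.62), *Adam26b* (-1.56) and *Adam26a* (-1.53). The smallest differences of the family belonged to *Adam3*, *Adam32* and *Adam5*. *Adam32* averaged 11.72 in wild-type against 10.43 in *Ctcf*-cKO, a difference of -1.29, and *Adam5* averaged 12.51 and 11.50. *Adam21* lay between these groups at -1.46 (8.51 and 7.05). *Adam34*, which appears only as the second symbol of a row and is no member by the rule, averaged 6.79 and 4.98, a difference of -1.81.

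Near-identical gene copies could share probe sequences, so the values of *Adam20* and *Adam25*, and those of *Adam6a* and *Adam6b*, are uncertain as separate measurements. Neither probe nor transcript sequences were compared. Promoter sequences (RefSeq, GRCm38.p6, from 250 bases before to 50 after the start site) were matched for 52 of the 71 members. Most of such a sequence lies outside the transcript, so its likeness does not show that probes are shared. The promoters of *Adam20* and *Adam25* aligned over 298 bases with 95.3% identity, and those of *Adam6a* and *Adam6b* without a mismatch over 199 bases. The following windows of 120 bases on the plus strand of chromosome 8 show how alike the first pair is. Capitals mark the run of 88 bases that both share, and 23 bases (*Adam25*) or 27 bases (*Adam20*) lie between the window and the start site. Their positions are chr8:40752065-40752184 and chr8:40793126-40793245.
Adam25: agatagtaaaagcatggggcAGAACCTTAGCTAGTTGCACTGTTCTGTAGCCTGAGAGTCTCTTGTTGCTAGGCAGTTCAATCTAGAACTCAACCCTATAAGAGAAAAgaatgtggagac
Adam20: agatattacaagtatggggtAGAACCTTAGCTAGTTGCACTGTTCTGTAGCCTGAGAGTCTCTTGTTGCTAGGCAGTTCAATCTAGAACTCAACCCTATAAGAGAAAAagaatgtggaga

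Of the 16 Prss genes with a row, 15 were lower and *Prss35* was higher, and *Prss46*, *Prss45* and *Prss55* turned to 0.035, 0.065 and 0.125 after re-centring. The median difference of the family was -1.32, and 3 genes were lower by a linear fold of at least 3. *Prss47* had the largest negative difference of all 71 genes: it averaged 9.77 in wild-type against 7.63 in *Ctcf*-cKO, a difference of -2.14 and a 4.41-fold lower linear signal (chromosome 13, 65044778 to 65052760, minus strand). The description of this row also names a pseudogene. *Prss58* averaged 10.56 and 8.89, a difference of -1.67.

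Proteases of the acrosome, the vesicle that sperm release at the egg coat, belonged to this group. *Prss40* averaged 9.42 in wild-type against 7.79 in *Ctcf*-cKO, a difference of -1.63. *Prss39* averaged 12.09 and 10.90, a difference of -1.19. *Prss37*, whose product is needed for the maturation of ADAM3 on sperm, averaged 10.42 and 8.98, a difference of -1.44. *Prss21* (testisin), a membrane-anchored protease of spermatids, averaged 9.65 and 8.26, a difference of -1.39. *Prss52* averaged 9.52 and 7.94, a difference of -1.58.

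The smallest sizes among the lower Prss genes were those of *Prss46* (-1.11), *Prss45* (-1.08) and *Prss55* (-1.02). *Prss55* averaged 9.76 in wild-type against 8.74 in *Ctcf*-cKO. The remaining lower genes (*Prss43*, *Prss42*, *Prss51*, *Prss54* and *Prss48*) lay between -1.41 and -1.18. *Prss35*, which encodes a trypsin-like protein known from the ovary, went the other way, from 7.76 to 9.02, a difference of 1.26. Of the membrane-anchored Tmprss proteases, only *Tmprss12*, which acts in sperm, has a row, and it averaged 8.53 in wild-type against 7.02 in *Ctcf*-cKO, a difference of -1.51.

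**Figure D2:**
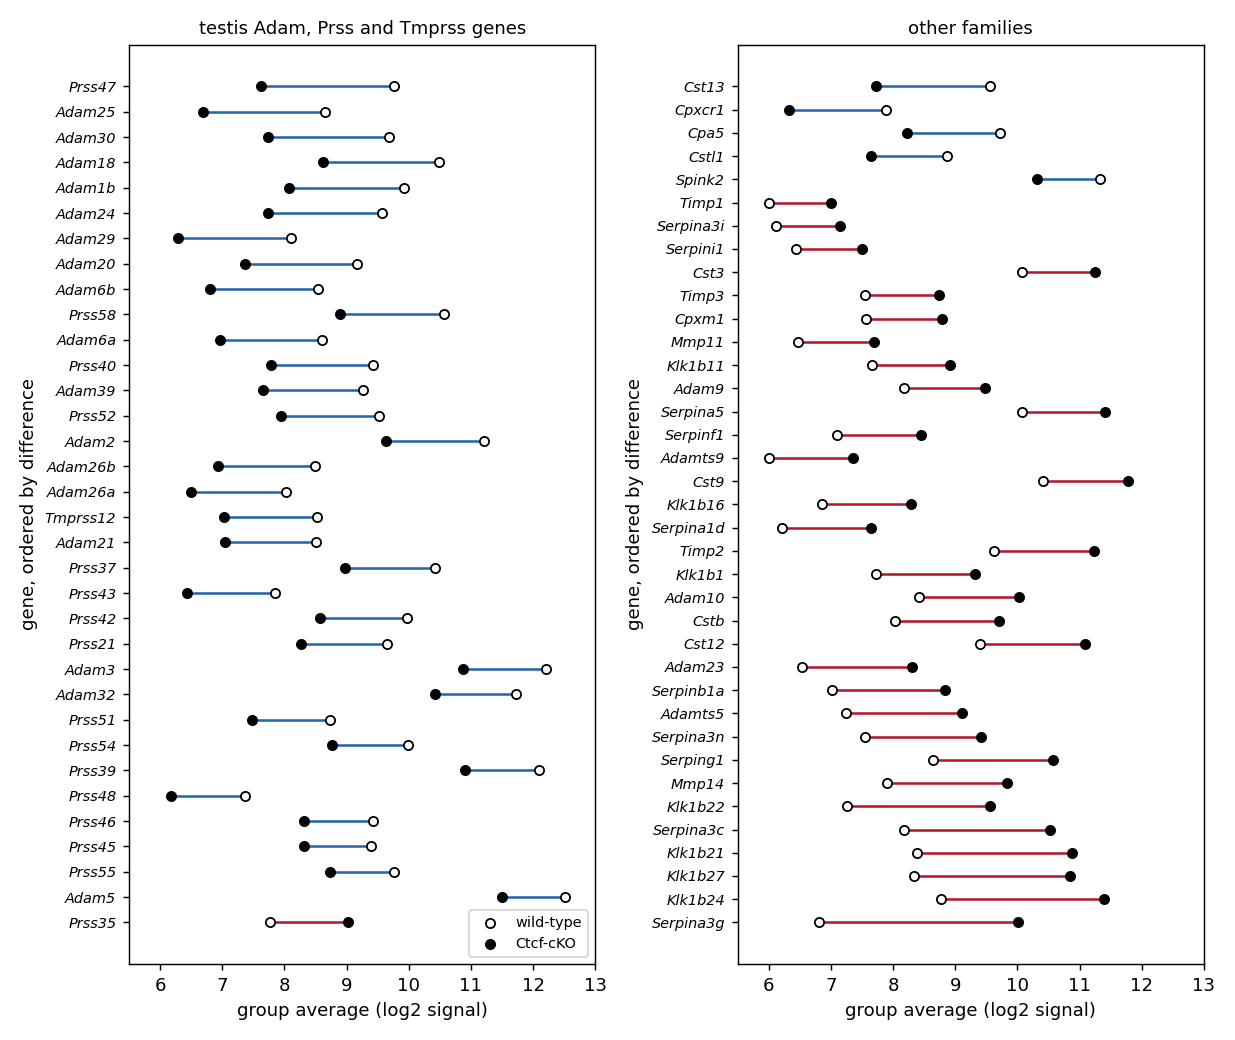
The authors' means of the log2 signal (horizontal axis) in wild-type (open circles) and *Ctcf*-cKO (filled circles) for each gene (vertical axis, ordered by difference), with a blue line where *Ctcf*-cKO is lower and a red line where it is higher. Left, the 34 testis Adam, Prss and Tmprss genes, of which *Prss35* alone is higher; right, the other 37 genes, of which 5 are lower; no error bars can be drawn because single-array values are not used here, and *Adam5*, *Prss45*, *Prss46*, *Prss55* and *Spink2* turn to small positive values after re-centring.

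Of the 15 Adam genes off the testis list, 3 have a row, and these were higher in *Ctcf*-cKO. *Adam10*, the sheddase that cleaves Notch receptors, averaged 8.41 in wild-type against 10.02 in *Ctcf*-cKO, a difference of 1.61. *Adam23*, which lacks protease activity and serves in cell adhesion, averaged 6.54 and 8.31, a difference of 1.77. *Adam9*, a sheddase of growth factors, averaged 8.17 and 9.48, a difference of 1.31.

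The matrix proteases and their inhibitors with a row (2 of 24 Adamts, 2 of 23 Mmp and 3 of 4 Timp genes) were higher as well. *Adamts5*, which cleaves the proteoglycan aggrecan, averaged 7.24 in wild-type against 9.10 in *Ctcf*-cKO, a difference of 1.86. *Adamts9*, a protease of versican, averaged 6.01 and 7.36, a difference of 1.35. *Mmp14*, the membrane-type protease that activates progelatinase, averaged 7.90 and 9.83, a difference of 1.93. *Mmp11* (stromelysin) had a smaller difference of 1.22, from 6.47 to 7.69. Among the inhibitors, *Timp2* averaged 9.63 and 11.23, a difference of 1.6. *Timp3*, whose product stays bound to the matrix, averaged 7.54 and 8.74, a difference of 1.2. *Timp1* (6.0 and 7.0) lay at the edge of the authors' filter with a difference of 1.00.

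All 10 Serpin genes with a row were higher in *Ctcf*-cKO, with a median difference of 1.62, and 5 were higher by a linear fold of at least 3. *Serpina3g*, an inhibitor of cathepsins known from haematopoietic cells, had the largest difference of all 71 genes. It averaged 6.80 in wild-type against 10.01 in *Ctcf*-cKO, a difference of 3.21 and a 9.25-fold higher linear signal (chromosome 12, 104236242 to 104241939, plus strand). *Serpina3c* averaged 8.17 and 10.52, a difference of 2.35, and *Serpina3n* averaged 7.55 and 9.42, a difference of 1.87. Both are mouse relatives of antichymotrypsin. *Serpina3i*, from the same cluster of genes, differed by 1.03 (6.11 and 7.14).

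*Serping1*, the inhibitor of the first complement proteases, averaged 8.64 in wild-type against 10.57 in *Ctcf*-cKO, a difference of 1.93. *Serpinb1a*, which blocks neutrophil elastase, averaged 7.01 and 8.83, a difference of 1.82. *Serpina1d*, an antitrypsin gene, averaged 6.21 and 7.64, a difference of 1.43. *Serpinf1*, whose product is not an inhibitor but a secreted factor that acts against vessel growth, differed by 1.34 (7.10 and 8.44). *Serpina5*, the protein C inhibitor of the male genital tract, differed by 1.32 (10.08 and 11.40), and *Serpini1* (neuroserpin) by 1.07 (6.43 and 7.5).

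The promoters of *Serpina3c* and *Serpina3n* aligned over 297 bases with 92.6% identity. Whether the rows of these copies share probes was not tested. The following windows of 104 bases show the run of 64 bases that both promoters share in capitals; 12 bases (*Serpina3c*) or 15 bases (*Serpina3n*) lie between the window and the start site. Their positions are chr12:104153885-104153988 on the minus strand and chr12:104406589-104406692 on the plus strand.
Serpina3c: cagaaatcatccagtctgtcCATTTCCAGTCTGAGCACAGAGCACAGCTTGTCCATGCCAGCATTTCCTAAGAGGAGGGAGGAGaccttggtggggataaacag
Serpina3n: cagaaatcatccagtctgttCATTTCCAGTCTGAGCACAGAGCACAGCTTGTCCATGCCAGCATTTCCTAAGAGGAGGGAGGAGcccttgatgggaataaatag

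The 7 Klk genes with a row all belong to the Klk1b subfamily of mouse glandular kallikreins, and all were higher in *Ctcf*-cKO. Their median difference, 2.29, was the highest of the families with at least 3 genes. *Klk1b24* averaged 8.77 in wild-type against 11.39 in *Ctcf*-cKO, a difference of 2.62 and a 6.15-fold higher linear signal. *Klk1b27* averaged 8.33 and 10.84, a difference of 2.51, and *Klk1b21* averaged 8.38 and 10.87, a difference of 2.49. These kallikreins are known from Leydig cells, whose markers were higher by 1.39 to 2.97. Sertoli, peritubular myoid, macrophage and endothelial markers with a row were higher too. The part of any cell type in the Klk1b differences was not tested. *Klk1b22*, which encodes a binding protein of epidermal growth factor, averaged 7.26 and 9.55, a difference of 2.29. Smaller differences were found for *Klk1b1* (1.6, from 7.72 to 9.32), *Klk1b16* (1.43, from 6.85 to 8.28) and *Klk1b11* (1.26, from 7.66 to 8.92).

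The Klk1b genes are close copies, and whether their differences are separate measurements is uncertain, since only promoters and no probe sequences were compared. All 21 pairs of their promoters aligned over at least 150 bases, with an identity of 80.5% to 98.1% and a median of 83.6%. The most alike were *Klk1b21* and *Klk1b24*, with 98.1% over 264 bases. The following windows of 75 bases on the plus strand of chromosome 7 are shown for the 4 genes with the largest differences, with the 20 bases common to all 4 in capitals. They lie at chr7:44188009-44188083, chr7:44052075-44052149, chr7:44102100-44102174 and chr7:44112435-44112509, with 152, 140, 117 and 163 bases between the window and the start site.
Klk1b24: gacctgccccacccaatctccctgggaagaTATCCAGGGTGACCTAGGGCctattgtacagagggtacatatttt
Klk1b27: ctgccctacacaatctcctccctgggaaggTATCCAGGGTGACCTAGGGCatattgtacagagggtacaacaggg
Klk1b21: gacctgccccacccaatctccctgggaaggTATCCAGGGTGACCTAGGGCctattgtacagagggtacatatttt
Klk1b22: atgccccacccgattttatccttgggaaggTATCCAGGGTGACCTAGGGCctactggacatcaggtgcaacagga

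The cystatins were split, with 2 of 6 lower and 4 higher in *Ctcf*-cKO under the authors' means, and neither lower gene turned with re-centring. *Cst13*, a cystatin of the testis, averaged 9.55 in wild-type against 7.73 in *Ctcf*-cKO, a difference of -1.82. *Cstl1* averaged 8.87 and 7.64, a difference of -1.23. On the other side, *Cst12* averaged 9.39 and 11.08, a difference of 1.69, and *Cst9* (testatin), known from Sertoli cells, averaged 10.41 and 11.77, a difference of 1.36. *Cst3* (cystatin C), an inhibitor secreted by many cell types, averaged 10.07 and 11.24, a difference of 1.17. *Cstb*, an inhibitor of cathepsins inside the cell, averaged 8.03 and 9.71, a difference of 1.68.

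The remaining families were small. *Spink2*, which blocks proteases in the acrosome, averaged 11.32 in wild-type against 10.32 in *Ctcf*-cKO, a difference of -1.0 that became 0.145 after re-centring. *Cpa5*, a carboxypeptidase gene, averaged 9.72 and 8.23, a difference of -1.49. *Cpxm1*, a secreted protein of the carboxypeptidase family, averaged 7.57 and 8.78, a difference of 1.21. *Cpxcr1* matched the rule by its symbol only, since its name gives a chromosome region and no protease, and it averaged 7.88 and 6.32, a difference of -1.56.

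The selected rows covered the families unevenly. Of the 279 protein-coding RefSeq genes with these prefixes, 71 (25.4%) have a row, against 14.3% of all 21896 protein-coding RefSeq genes by symbol. Counted by the first symbol of a row, which leaves out *Adam34*, the testis Adam genes had a row in 17 of 20 cases, the Timp genes in 3 of 4 and the Prss genes in 16 of 39. In contrast, 10 of 63 Serpin genes, 3 of 15 other Adam genes, 2 of 24 Adamts genes, 2 of 23 Mmp genes and 1 of 17 Tmprss genes have one. The serpins and matrix proteases described above are therefore the minority of their families that passed the authors' filter, and for the others no value is given.

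**Figure D3:**
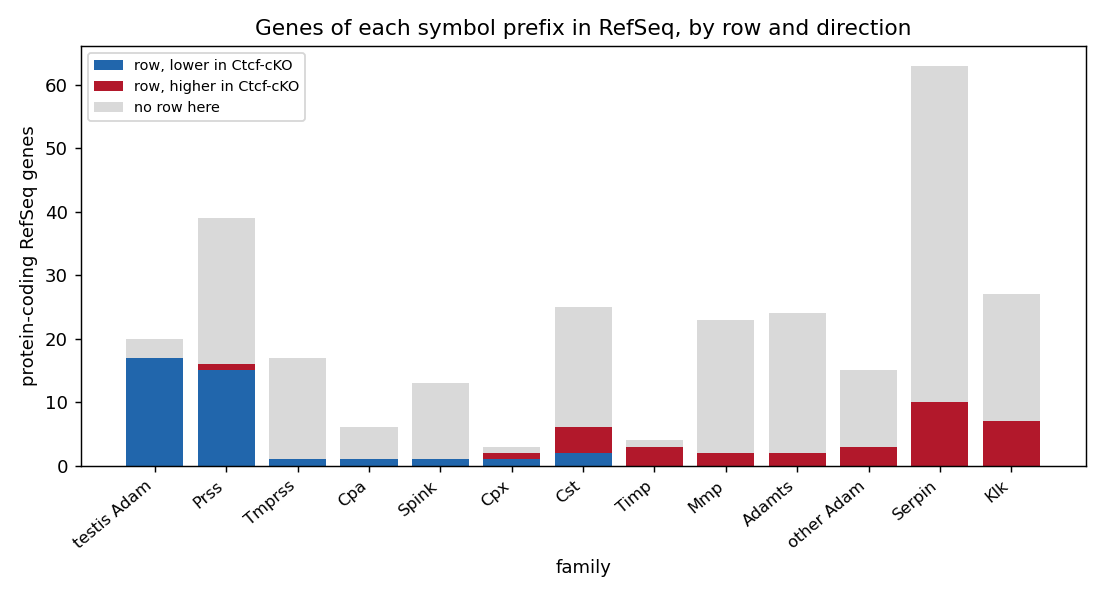
Number of protein-coding RefSeq genes (vertical axis) of each family (horizontal axis) that have a row and are lower (blue) or higher (red) in *Ctcf*-cKO, or that have no row under their symbol as the first of a row (grey). Rows cover 17 of 20 testis Adam genes and 10 of 63 Serpin genes; *Adam34*, the second symbol of a row, counts as grey, and *Adam5*, *Prss45*, *Prss46*, *Prss55* and *Spink2*, drawn in blue, turn to small positive values after re-centring.

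Members were also grouped by their position. Joined wherever members lay within 500 kb of each other, 42 of the 71 genes fell into 11 groups, of which 9 held a single direction. Each group holds genes of a single symbol prefix, so this count partly repeats the split by family. How often neighbouring coding genes in general share a direction was not computed. The 7 Klk1b genes with a row span 225.7 kb of chromosome 7 and were all higher. That span holds 2 other RefSeq genes, *Klk1b9* and *Klk1b26*, of which 0 have a row. The 6 Serpina genes with a row span 650.7 kb of chromosome 12 and were all higher. The 12 other RefSeq genes of that span are Serpina genes as well, and 0 of them have a row. *Adam24*, *Adam25*, *Adam20* and *Adam39* lie within 151.8 kb of chromosome 8, and *Prss42*, *Prss43*, *Prss45* and *Prss46* within 58.4 kb of chromosome 9. Both of these groups were lower under the authors' means, *Prss45* and *Prss46* turning after re-centring. Copies in tandem share sequence, so members of a group are not independent.

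A pair of groups held both directions. On chromosome 8, *Adam18*, *Adam3*, *Adam5* and *Adam32* were lower by 1.01 to 1.87, whereas *Adam9*, on the same strand with its row beginning 0.8 kb past that of *Adam32* along the chromosome, was higher by 1.31. On chromosome 2, 5 cystatin genes with a row lie within 125.3 kb. Their order is *Cstl1* (-1.23), *Cst12* (1.69), *Cst13* (-1.82), *Cst9* (1.36) and *Cst3* (1.17), so that the direction alternates between the first 4 of them. The same span holds 4 other RefSeq genes, *Cst11*, *Cstdc1*, *Cst8* and *Cstdc2*, of which 0 have a row. The alternation is thus one between the genes that passed the filter. The gap between *Cst13* and *Cst9* is 4.7 kb.

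**Figure D4:**
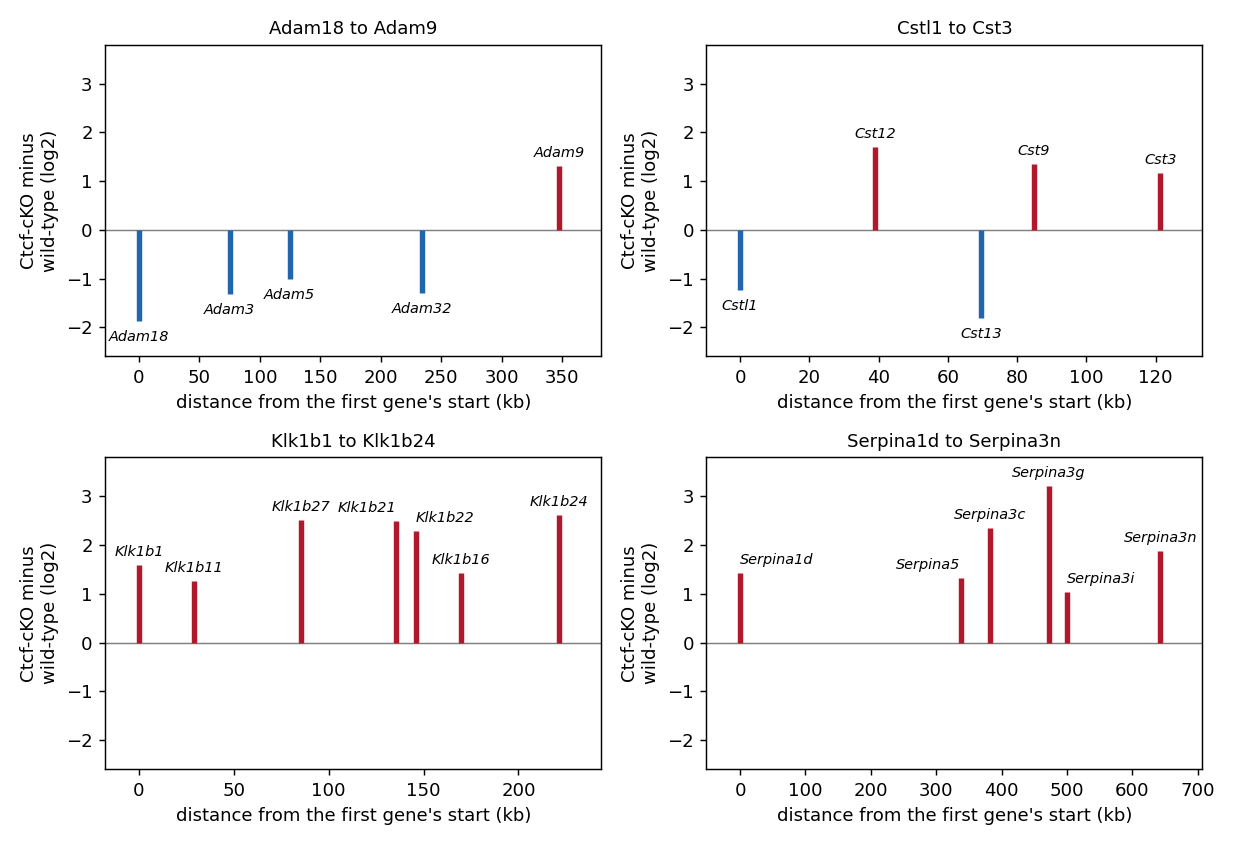
Difference between the authors' means of *Ctcf*-cKO and wild-type (log2 signal, vertical axis) of the genes of 4 groups against the distance from the start of the first gene (kb, horizontal axis), in blue where lower and in red where higher in *Ctcf*-cKO. Only genes with a row are drawn, and the cystatin, Klk1b and Serpina spans hold further genes without one. *Adam9* at 1.31 stands next to *Adam32* at -1.29, the first 4 cystatin genes drawn alternate, and all Klk1b and Serpina genes drawn are higher. *Adam5* turns to 0.135 after re-centring.

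The annotation columns of the deposited table show what the members share beyond their names. These columns list the tissues in which sequences of each gene had been catalogued. Testis was the only tissue listed for 29 of the 36 lower members with any tissue (80.6%), against 36.4% of all lower coding genes with a tissue. Of the 33 higher members it was the only tissue for 1, *Cst9* (3.03%), against 0.68% of all higher coding genes. The median number of tissues was 1 for the lower and 14 for the higher members, beside 2 and 22 for all lower and all higher coding genes. It was 2 for the Klk and 11.5 for the Serpin genes, all of them higher. The number ran up to 36 for *Timp3*. The testis Adam list was drawn up by such expression, so its share of 13 of 17 is a property of the list. The Prss genes, taken by prefix, had testis alone in 11 of 14 cases. However, only 16 of 39 Prss genes have a row, and the authors' filter on RNA of the tubules selected these. Their share may thus reflect that selection too.

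**Figure D5:**
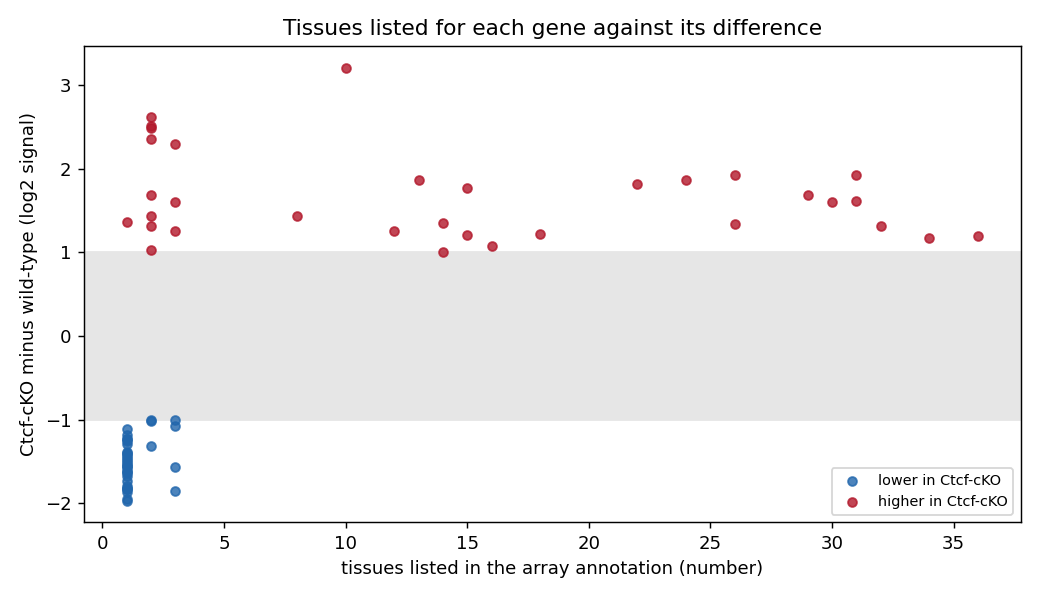
Difference between the authors' means of *Ctcf*-cKO and wild-type (log2 signal, vertical axis) against the number of tissues listed for a gene in the array annotation (horizontal axis); each point is a gene with a tissue listed, blue where lower and red where higher in *Ctcf*-cKO, and the grey band is the range removed by the authors' fold filter. The lower genes lie at 1 to 3 tissues and the higher genes between 1 and 36; *Adam5*, *Prss45*, *Prss46*, *Prss55* and *Spink2* turn to small positive values after re-centring.

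Terms of the Gene Ontology and protein domains in the same table were counted for the members only. No share over all lower or higher coding genes was computed, so these counts cannot be set against a background. The component extracellular region was given to 21 of the 33 higher members and to 14 of the 38 lower members. The term integral to the membrane was given to 14 lower and 4 higher members. Spermatogenesis was given to 9 lower members and, among the higher ones, to *Serpina5* alone. The acrosomal vesicle was given to 4 members, *Prss39*, *Prss40*, *Adam2* and *Spink2*, all of them lower under the authors' means, with *Spink2* turning after re-centring. By protein domain, the ADAM type of the metalloprotease domain was found in 17 lower and 5 higher members, and the trypsin-like peptidase domain in 15 lower and 8 higher members, so that neither enzyme class had a single direction.

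The promoters with a RefSeq window, 24 of lower and 28 of higher members, were searched on both strands for 3 motifs, none of which contains another. A core of the CTCF motif was in 0 of both groups and in 0.03% of all 27025 promoters of that length, which is 8 promoters. So rare a string would seldom be met in 24 or 28 promoters. Its absence therefore does not show whether CTCF binds at these genes. The cAMP response element TGACGTCA, known from testis promoters, was also in 0 of both and in 1.88% of all promoters. TATAAA was in 4 lower members (*Cst13*, *Adam29*, *Adam6a* and *Adam6b*) and in 1 higher member (*Serpina3c*), which is 16.7% and 3.57% of them, against 14.2% of all promoters. These are matches of letters only.

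Proteases and related activators whose symbols are outside the rule, lysosomal cathepsins and the clotting factors *F3* and *F13a1*, which are no proteases, included, were mostly higher. Of 71 such genes, listed with earlier results of these data known, 23 have a row. Of these 23, 3 were lower and 20 higher, beside 38.7% higher among all coding genes. The median difference was 1.52. The largest were *Ctsb*, the lysosomal protease cathepsin B (2.20, from 9.53 to 11.73), *Cpe*, a carboxypeptidase of prohormones (2.06), the peptidase *Mme* (2.02), and *Ctsh* (1.98). The 3 lower genes were *Gzmn*, a granzyme (-1.77), the peptidase gene *Ace3* (-1.42) and *Acr*, the acrosomal protease acrosin (-1.06, from 10.77 to 9.71), the last of which is also on the list of round spermatid markers. Of these 3, *Acr* alone turned positive after re-centring.

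Of 49 further inhibitors and binding proteins, listed in the same way, 12 have a row. Of these 12, 2 were lower and 10 higher, beside 38.7% higher among all coding genes. The median difference was 1.46. *Eppin*, an inhibitor on the sperm surface that is made in the testis and epididymis, averaged 8.89 in wild-type against 10.80 in *Ctcf*-cKO, a difference of 1.91. Next came *Wfdc10* (1.76), *Itih5* (1.70) and *Lrp1*, a receptor that clears protease and inhibitor complexes (1.67). *Cd109*, a relative of the macroglobulin inhibitors, averaged 8.73 and 6.93, a difference of -1.80, and *Wfdc15a* differed by -1.38.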

How the data were processed

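Total RNA from 3 wild-type mice and from 4 *Ctcf*-cKO mice was hybridised to GeneChip mouse transcriptome arrays. Per the submitters' processing notes, signals were summarised with RMA in Affymetrix Expression Console 1.4.1 and compared in Transcriptome Analysis Console 3.0 on mm10. The authors' deposited table gives, for the 7580 transcript clusters that met a linear fold of 2 at p of 0.05, a bi-weight average per genotype of the log2 signal. It also holds the authors' fold changes, p-values and adjusted p-values, none of which was used. Its decimal commas were read as points. Differences are *Ctcf*-cKO minus wild-type averages, and linear folds are 2 to the power of their size. The classes Coding and Complex were taken as coding (4102 rows), counted once per first symbol. All 71 members overlapped the RefSeq gene of their symbol, and their rows hold 30 to 510 probes (median 60). The number of arrays limits the precision. The families, members and lists were chosen with earlier results of these data known.

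Genes are named as follows: every member of a family of up to 12 genes. In larger families, members with a difference of at least 1.5, the 3 smallest and those opposite to most of the family are described, and other members are named for completeness. For the related lists, counts and the leading genes are given. Alternatives were the class Coding alone, a linear fold of 3, an average of 6 or more (log2 signal) in either group, any symbol of a row, single rows, rows with the values of another row left out, names outside proteases and inhibitors left out, and re-centring to the median of the rows. Chromosome Y was left out of the background in an alternative chosen after seeing the data. The calculations were made in Python 3.11.15 with pandas 2.3.3, and promoters were aligned with Biopython 1.88. They were tested on simulated data.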

Additional observations from a re-analysis of the deposited data

Results flagged for a closer look

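Signals outside the coding rows were found beside member genes. The pseudogene *Serpina3e-ps*, in the Serpina3 group of chromosome 12, averaged 4.98 in wild-type against 6.14 in *Ctcf*-cKO, a difference of 1.16 in the authors' means. A non-coding row on the strand opposite to *Cst3* averaged 6.89 and 8.01, a difference of 1.12, beside 1.17 for *Cst3* itself. A non-coding row on the strand of *Prss35* averaged 6.44 and 7.74, a difference of 1.30, beside 1.26 for *Prss35*. No test of these differences was computed here. At *Timp2* (1.6), a non-coding row on the opposite strand was lower, from 8.31 to 7.19, a difference of -1.12.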

How the results depend on the processing

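Counts of lower and higher genes, in all and by family, moved by more than 1.5 times under 4 of the alternatives. Matching every symbol of a row gave 39 lower members and 18 lower testis Adam genes. With the class Coding alone, 21 members were higher, among them 5 Serpin, 1 Adamts, 1 Mmp, 1 other Adam and 0 Cpx genes, and 0 Cpa and 0 Spink genes were lower. At a linear fold of 3, 14 members were lower (10 testis Adam, 3 Prss, 1 Cst, 0 Tmprss, 0 Cpa, 0 Cpx and 0 Spink) and 17 higher (5 Serpin, 5 Klk, 2 other Adam, 2 Cst, 1 Adamts, 1 Mmp, 1 Timp, 0 Prss and 0 Cpx). Without *Cpxcr1*, 0 Cpx genes were lower. Re-centred on the median of all rows (-1.145) and held to a fold of 2, 0 members (0%) were lower. Each lower family (testis Adam, Prss, Tmprss, Cst, Spink, Cpa and Cpx) likewise had 0 lower genes. The 33 higher members cannot turn, since the same amount is added to every row, and a lower member turns by its size alone. Of all coding genes, 5 then counted as lower and 1547 as higher, which is 0.322% lower genes in place of 61.3%. Since the rows were selected by fold, this median is not that of the array. The re-centred medians were -0.495 for testis Adam, -0.18 for Prss, 2.755 for other Adam, 2.345 for Timp, 2.77 for Serpin, 2.41 for Cst and 3.435 for Klk. The genes that turned were *Prss46* (0.035), *Prss45* (0.065), *Prss55* (0.125), *Adam5* (0.135) and *Spink2* (0.145). Leaving out chromosome Y, an alternative chosen after seeing the data, gave a background of 58.3% lower coding genes. No paired analysis was possible because the table holds no values of single mice, and for the same reason leaving out a replicate was not run.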
